A study of Mus musculus with 2 samples.

Results

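Neutrophils were examined in single-cell RNA-sequencing libraries of liver from mice fed a Western-type diet for 16 weeks, and 473 of 42372 cells were taken as neutrophils. One library came from the liver of WT mice, whose genotype label is CTRL, and the other from liver plus tumor of N-LKO mice, in which NgBR (the product of Nus1, a subunit of the cis-prenyltransferase that makes dolichol) was deleted in hepatocytes by an albumin promoter-driven Cre. The study's methods describe male C57BL/6 mice on standard chow before the diet. The labels do not give the number of mice behind a library. The titles of the samples call the diet HFD and their treatment labels call it WD. Hepatocytes and nonparenchymal cells (NPCs) were pooled in set proportions after collagenase perfusion, and tumor cells were added only to the N-LKO pool, so genotype, tumor tissue, cell mix and library cannot be told apart. With 1 library per group there is no test across mice and no p-value, and every interval given here is a 95% interval of counting error only.

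Neutrophils are short-lived granulocytes made in the bone marrow, where they fill their granules in order as they mature. Primary granules carry myeloperoxidase and serine proteases, secondary granules carry lactoferrin, cathelicidin and related antimicrobial proteins, and tertiary granules carry gelatinase. Transcription of the granule genes stops before the cell leaves the marrow, and the circulating cell then expresses chemokine receptors and, on activation, cytokines such as IL-1β. In the steatotic liver, neutrophils are recruited through CXCR2 and are known as a source of oxidants, proteases and inflammatory cytokines.

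The cells were defined by their counts of unique molecular identifiers (UMIs, which count captured transcripts once each). A cell was kept with at least 1000 UMIs, at least 400 genes and at most 30% of UMIs from mitochondrially encoded genes. A neutrophil had at least 4 UMIs summed over S100a8, S100a9, Retnlg, Csf3r and Cxcr2 and at most 1 UMI summed over 8 genes of Kupffer cells, endothelial cells, T cells, stellate cells and B cells. In the WT library 66 of 20158 kept cells met this rule, and in the N-LKO library 407 of 22214 did. The WT neutrophils held 95449 UMIs in all and the N-LKO neutrophils 648451, so that the precision of every comparison was set by the WT cells. A WT neutrophil had a median of 1291 UMIs (range 1001 to 2781) and an N-LKO neutrophil a median of 1359 (range 1003 to 7179), with 748 and 783 genes. The median mitochondrial share was 14.6% in WT and 17.4% in N-LKO neutrophils. Of the barcodes, 2499 occurred in both libraries and 139 passed the filters in both, but no barcode was a neutrophil in both.

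Hepatocyte transcripts were present in these cells. Albumin transcripts, which neutrophils do not make, were found after thinning to 1000 UMIs in all 66 WT neutrophils and in 96.8% of N-LKO neutrophils. A list of 18 hepatocyte genes took 7.1% of the UMIs of WT neutrophils and 4.36% of those of N-LKO neutrophils. In barcodes with under 500 UMIs it took 11.3% and 6.29%. Those barcodes, 18526 in WT and 13674 in N-LKO, were assumed to hold mostly free RNA, which was not tested. If that held and all hepatocyte transcripts in neutrophils were free RNA, it made up 62.7% of neutrophil UMIs in WT and 69.2% in N-LKO. Both estimates, which the subtraction of free RNA below also used, rest on the pooled shares. Per cell, the list took a median of 6.75% in WT and 2.80% in N-LKO, and at most 17.5% and 21.6%. The pooled N-LKO share of 4.36% thus lay above its median cell, so 69.2% leans on the cells richest in hepatocyte UMIs. The order of the 2 libraries is therefore not settled by these estimates. Levels in barcodes with under 500 UMIs are therefore given below beside the genes they touch, and are called free RNA levels.

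The 5 selection genes chose the cells, so their levels are a description. S100a9, which with S100a8 encodes the calcium-binding heterodimer calprotectin, stood at 11189 summed counts per 1000000 UMIs (CPM) in WT and 5946 in N-LKO neutrophils, and its free RNA levels were 28.9 and 121. S100a8 stood at 6579 and 3690 CPM. Retnlg, a resistin-like secreted protein, stood at 618 and 495 CPM, Csf3r, the receptor for granulocyte colony-stimulating factor, at 346 and 307, and Cxcr2, the receptor for CXCL1 and CXCL2, at 136 and 163. Their sum per cell had a median of 11.5 UMIs in WT (range 4 to 177) and 8 in N-LKO (range 4 to 189). A sum of exactly 4, just inside the rule, was found in 8 WT and 55 N-LKO neutrophils, and a sum of exactly 3 in the same numbers of cells, 8 and 55, just outside it. A further 73 WT and 406 N-LKO cells had enough selection UMIs but were left out for 2 or more UMIs of the exclusion genes.

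Transcripts outside the selection were then compared with those of monocyte-gated cells, the nearest population by origin, and of endothelial-gated cells, which should lack them. Il1b, encoding IL-1β, was found in 36.4% of WT neutrophils and 44.7% of N-LKO neutrophils after thinning, in 12.6% and 12.1% of monocyte-gated cells and in 2.5% and 6.6% of endothelial-gated cells. Hdc, the histidine decarboxylase that makes histamine, was found in 18.2% and 22.9% of neutrophils and in 2.8% and 5.9% of endothelial-gated cells. Mxd1, a MYC antagonist of maturing granulocytes, was found in 21.2% and 20.6% of neutrophils, and Clec4d, a lectin receptor, in 16.7% and 21.1%, with at most 3.3% of endothelial-gated cells positive for either. Each of these 4 genes was thus detected above the background in both libraries. The monocyte genes stood the other way round. Ccr2 was found in 72.4% of N-LKO and 78.4% of WT monocyte-gated cells, which it helped to select, and in 15.7% of N-LKO and 4.5% of WT neutrophils. Without thinning, the median depth of the cells compared was 1255 to 1449 UMIs.

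Not every marker separated the cells. Ly6g, the antigen commonly used to sort mouse neutrophils, was found in 1.5% of WT neutrophils and 2.0% of N-LKO neutrophils. Cd177 was found in 4.5% and 2.2% of neutrophils, against 2.7% and 1.9% of monocyte-gated cells. Trem1 was found in 4.5% and 4.7% of neutrophils and Il1r2 in 4.5% and 19.2%, against at most 1.3% of endothelial-gated cells. Among the other markers, Mmp9 (13.6% and 7.9%), Clec4e (16.7% and 12.5%) and Stfa2l1 (13.6% and 4.4%) were found in at most 1.2% of endothelial-gated cells. Ifitm2 was found in 50% of WT neutrophils and 35.1% of N-LKO neutrophils and in 50% and 35.4% of endothelial-gated cells, so it was read as background. Wfdc21 was found in 77.3% and 39.8% of neutrophils, with 57.7% and 24.9% of endothelial-gated cells positive. G0s2, an inhibitor of adipose triglyceride lipase, was found in 21.2% and 15.7% of neutrophils, against 14.2% and 4.4% of endothelial-gated cells.

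**Figure D1:**
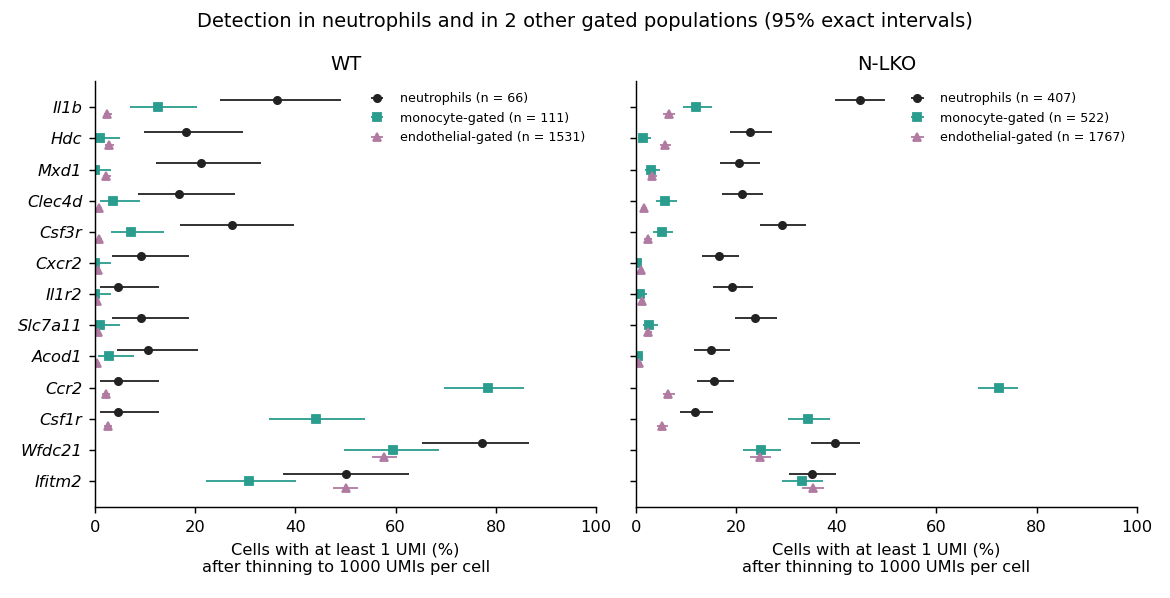
Share of cells with at least 1 UMI of a gene (x axis, %) after every cell was thinned to 1000 UMIs, in WT (left) and N-LKO (right). Black circles are neutrophils, green squares monocyte-gated and purple triangles endothelial-gated cells, with 95% exact binomial intervals. Il1b reached 36.4% and 44.7% in neutrophils, while Ifitm2 in neutrophils lay at the endothelial level.

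Transcripts of other cell types remained in part of the neutrophils. At least 4 UMIs of a 10-gene dendritic list, which includes the MHC class II genes H2-Aa, H2-Ab1, H2-Eb1 and Cd74, were found in 8 of 66 WT neutrophils (12.1%) and 132 of 407 N-LKO neutrophils (32.4%). The summed level of that list was 1582 CPM in WT and 2933 in N-LKO, with free RNA levels of 334 and 1016. For a T and NK cell list, 8 WT (12.1%) and 34 N-LKO neutrophils (8.35%) held at least 4 UMIs, and the summed level was 1352 and 586 CPM. The B and plasma cell list was held at that level by 0 WT and 13 N-LKO neutrophils, of which 1 had 412 UMIs, and the erythroid and platelet list by 0 and 8, of which 1 had 191 UMIs. At least 2 UMIs of the monocyte genes Csf1r, Ccr2, Ly6c2 and F13a1 were found in 7 WT neutrophils (10.6%, 4.37 to 20.6) and in 83 N-LKO neutrophils (20.4%, 16.6 to 24.6). Genes of eosinophils, basophils and mast cells were at 0 in WT and at 7.71 CPM in N-LKO, with Epx, Prg2, Mcpt8 and Cpa3 at 0 in both. In all, 20 WT (30.3%) and 216 N-LKO neutrophils (53.1%) held at least 4 UMIs of a T and NK, B and plasma, dendritic, endothelial, stellate, cholangiocyte or erythroid list. The hepatocyte list and a 16-gene monocyte and macrophage list are not part of that count. At least 4 UMIs of the latter were found in 56 WT (84.8%) and 369 N-LKO neutrophils (90.7%), at summed levels of 6517 and 9219 CPM beside free RNA levels of 7107 and 9467.

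Neutrophils took a larger share of the N-LKO library. They were 0.327% of WT cells (0.253 to 0.416) and 1.83% of N-LKO cells (1.66 to 2.02), a difference of 1.505 percentage points (1.31 to 1.70) and a ratio of 5.60. Because the pools differed in their mix of hepatocytes, NPCs and tumor cells, the share was also taken among cells with a UMI of Ptprc, which encodes the leukocyte antigen CD45. Of 4977 such WT cells 38 were neutrophils (0.764%, 0.541 to 1.05), and of 10619 such N-LKO cells 271 were (2.55%, 2.26 to 2.87), a difference of 1.79 points (1.39 to 2.17) and a ratio of 3.34. Against other populations gated by markers, there were 59.5 WT and 78.0 N-LKO neutrophils per 100 monocyte-gated cells, 4.24 and 15.1 per 100 Kupffer-gated cells, and 4.31 and 23.0 per 100 endothelial-gated cells. Of these 3 ratios the one to monocytes differed least between the libraries.

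The share depended on the depth required of a cell. A further 239 WT and 500 N-LKO cells met the neutrophil rule with 200 genes and from 500 to under 1000 UMIs, so the minimum of 1000 UMIs left out 78.4% of WT neutrophils found from 500 UMIs up and 55.1% of those in N-LKO. With the lower minimum the share was 0.452% in WT and 2.23% in N-LKO, and among Ptprc-positive cells 1.77% and 3.31%, a ratio of 1.87. Leaving out the neutrophils with 4 UMIs of another type's list, an alternative chosen after seeing the data, gave 46 WT and 191 N-LKO cells and ratios of 3.77 among all kept cells and 1.98 among Ptprc-positive cells. The N-LKO share was the higher in each of the 11 ways of choosing the cells shown in the plot of neutrophil shares.

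**Figure D2:**
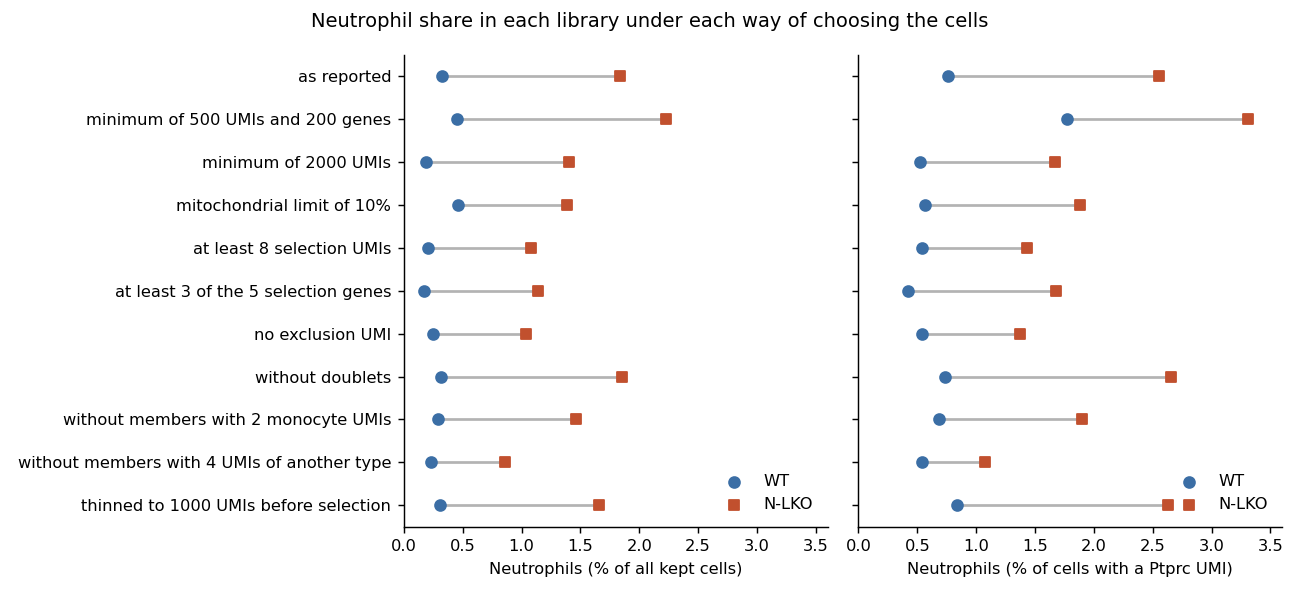
Neutrophil share in the WT (blue circles) and N-LKO library (red squares) as a percentage of all kept cells (left) and of cells with a Ptprc UMI (right), for the rule as reported and 10 other ways of choosing cells. N-LKO lay above WT in every line, and the gap among Ptprc-positive cells was smallest in ratio with a minimum of 500 UMIs (1.77% and 3.31%).

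Within the neutrophils a small set of cells stood apart by their granule transcripts. Ngp (neutrophilic granule protein), Camp (the cathelicidin precursor) and Ltf (lactoferrin) are secondary granule genes that played no part in choosing the cells. Their summed UMIs were 0 in 52 of 66 WT and 374 of 407 N-LKO neutrophils, whereas 8 WT neutrophils held 5 to 65 (median 20.5) and 28 N-LKO neutrophils held 8 to 100 (median 24.5). These granule-rich cells made up 12.1% (5.38 to 22.5) of WT and 6.88% (4.62 to 9.79) of N-LKO neutrophils, so that the intervals overlapped. With neutrophils from 500 UMIs up, 13 of 305 WT cells (4.26%, 2.29 to 7.18) and 48 of 907 N-LKO cells (5.29%, 3.93 to 6.96) were granule-rich. Which library had the higher share thus turned with the depth required. The cut of 5 UMIs and the genes set out for these cells were chosen after their values had been seen.

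**Figure D3:**
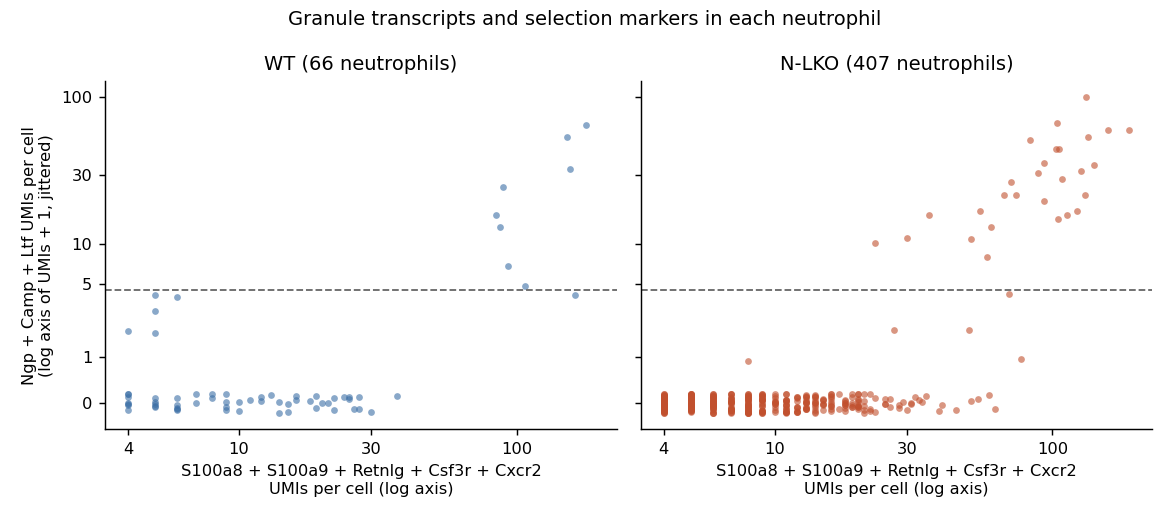
Each point is a neutrophil of the WT (left) or N-LKO library (right), by its summed UMIs of the 5 selection genes (x axis, log scale) and of Ngp, Camp and Ltf (y axis, log scale of UMIs + 1, jittered). The dashed line marks the cut for granule-rich cells (5 UMIs or more), above which lay 8 WT and 28 N-LKO cells, with selection sums of 84 to 177 in WT and 23 to 189 in N-LKO.

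Granule-rich cells were then set against the other neutrophils on genes that took no part in the cut. Lcn2, the siderophore-binding lipocalin of secondary granules, stood at 3130 CPM in WT and 4014 in N-LKO granule-rich cells, against 120.0 and 266 in the others. The cut itself fixed the contrast in its own 3 genes, whose levels in granule-rich cells only describe them: Ngp stood at 8071 and 10405 CPM, Camp at 7165 and 7267 CPM and Ltf at 2718 and 2907 CPM. Of the selection transcripts, S100a8, S100a9 and Retnlg stood higher in the same cells, though in WT the intervals of Retnlg overlapped (691 to 2038 and 384 to 709 CPM). S100a9 was at 47686 CPM (43880 to 51733) in WT and 35898 (34136 to 37727) in N-LKO granule-rich cells and at 5870 and 3801 in the others. Csf3r stood lower in granule-rich cells of both libraries, in WT with 1 UMI and overlapping intervals. Cxcr2 was at 165 CPM in WT and 69.2 in N-LKO granule-rich cells and at 132 and 170 in the others. Granule-rich cells of the 2 libraries were not alike in every gene. Beside S100a8, S100a9 and Mpo, which sat in few cells, their intervals lay apart for Chil3, a chitinase-like protein of immature granulocytes, at 412 CPM in WT (134 to 961, 5 UMIs) and 2169 in N-LKO (1752 to 2654), and for Mmp8, the neutrophil collagenase, at 247 (51.0 to 722, 3 UMIs) and 1015 (738 to 1363). Hmgb2, a chromatin protein abundant in dividing cells, stood at 659 and 1015 CPM in granule-rich cells and at 108 and 165 in the others. Granule-rich cells with at least 1 UMI of a 12-gene proliferation list numbered 5 of 8 in WT and 21 of 28 in N-LKO, compared with 14 of 58 and 129 of 379 others.

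Il1b and Cxcl2 lay mostly in the remaining cells. Granule-rich cells with an Il1b UMI numbered 1 of 8 in WT and 3 of 28 in N-LKO, whereas the gene was found in 32 of 58 (55.2%) and 217 of 379 (57.3%) others. Its level was 82.4 and 92.3 CPM in granule-rich cells and 708 and 770 CPM in the others. Cxcl2, a CXCR2 ligand, was found in 0 and 1 granule-rich cells and stood at 576 and 385 CPM in the others. Ccl6, a CC chemokine, was not set apart in this way, at 0 UMIs (upper bound 304 CPM) and 185 CPM (79.7 to 364) in granule-rich cells and at 192 (110 to 312) and 281 CPM (240 to 326) in the others. Csf3r stood at 82.4 and 115 CPM in granule-rich cells and at 384 and 321 in the others. The WT intervals, 2.09 to 459 and 263 to 542 CPM, overlapped. Csf3r is a selection gene, so the rule itself can shape this contrast, which is only a description. Primary granule transcripts were rarer and sat in few cells. Mpo was found in 1 WT neutrophil with 8 UMIs and in 2 N-LKO neutrophils, of which 1 held 18 of the 20 UMIs.

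**Figure D4:**
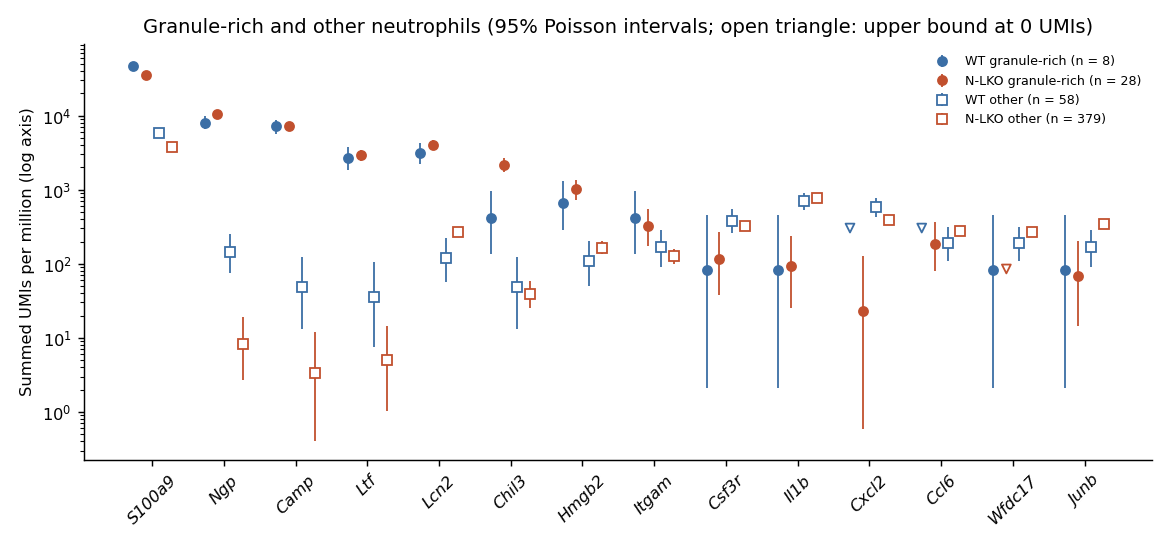
Summed CPM (y axis, log scale) of 14 genes in granule-rich cells (filled circles) and the other neutrophils (open squares) of the WT (blue) and N-LKO library (red), with 95% Poisson intervals. Open triangles give the upper bound where no UMI was found. Lcn2 was higher in granule-rich cells of both libraries, and Il1b and Cxcl2 in the others, while the contrast in Ngp, Camp and Ltf was fixed by the cut. S100a9 and Csf3r helped to select the cells.

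The promoters of the 3 genes that defined the granule-rich cells are shown because these genes were detected in the same cells. All 3 lie on chromosome 9 in the RefSeq table used here (build GRCm38.p6), which was read for sequence and position only. The submitters' notes name another build, mm9, for the counts. The 250 bases before each start site are given 5′ to 3′ on the gene's strand, with capitals for matches to TTNNGCAA on either strand, a short form of the element bound by C/EBP factors. C/EBPε is known to drive secondary granule genes.
Ngp (chr9:110419558-110419807, plus strand): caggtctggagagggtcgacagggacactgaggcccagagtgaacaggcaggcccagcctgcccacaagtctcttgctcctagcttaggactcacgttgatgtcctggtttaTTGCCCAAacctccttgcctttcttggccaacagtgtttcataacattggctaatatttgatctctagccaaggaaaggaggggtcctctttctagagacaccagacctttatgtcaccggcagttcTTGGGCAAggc
Ltf (chr9:111019042-111019291, plus strand): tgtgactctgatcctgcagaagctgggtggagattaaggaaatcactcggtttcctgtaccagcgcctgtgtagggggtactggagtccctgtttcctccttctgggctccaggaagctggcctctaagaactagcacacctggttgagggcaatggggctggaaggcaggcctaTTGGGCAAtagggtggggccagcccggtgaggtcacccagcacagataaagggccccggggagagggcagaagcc
Camp (chr9:109849457-109849706, minus strand): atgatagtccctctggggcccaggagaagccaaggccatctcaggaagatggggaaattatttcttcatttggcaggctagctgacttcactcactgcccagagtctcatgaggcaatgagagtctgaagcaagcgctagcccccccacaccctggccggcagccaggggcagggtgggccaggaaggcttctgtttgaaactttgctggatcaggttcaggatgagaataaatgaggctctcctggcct
Ngp had matches that begin 138 and 11 bases before the start, Ltf had 1 at 75 bases, and Camp had none in this window. The letters occurred in 3142 of 32851 promoter windows of the same length (9.56%), and a match is not evidence of binding. Cebpe itself was found with 2 UMIs in WT and 5 UMIs in N-LKO granule-rich cells.

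The comparison of N-LKO with WT neutrophils asked which transcripts differed between the libraries. Of 3486 genes with a mean of at least 50 CPM and at least 20 UMIs in all, 272 (7.8%) were at least 2-fold higher in N-LKO with an interval above 0, and 328 (9.41%) were at least 2-fold lower with an interval below 0. A gene that met this rule is said below to be called. Only 150 of the higher and 44 of the lower genes stood, in the library where they were higher, at 2 times the free RNA level or more. The median log2 ratio over all 3486 genes was -0.05 (0.28 in the other kept cells and 0.01 in monocyte-gated cells). The ratios moved with gene span, from a median of -0.43 in the fifth of genes with the shortest spans (median 4.31 kb) to 0.50 in the fifth with the longest (197 kb), and the longest held 126 of the higher calls and 6 of the lower calls. The part of span in single ratios was not tested.

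The targeted gene gave no check in these cells, since the Cre acts in hepatocytes. Nus1 had 3 UMIs in WT neutrophils (31.4 CPM, 6.48 to 91.9) and 23 in N-LKO neutrophils (35.5 CPM, 22.5 to 53.2). In cells with at least 10% hepatocyte UMIs it stood at 72.4 CPM in WT and at 38.4 CPM in N-LKO.

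Of 21 neutrophil identity genes tested, 5 were called higher and 4 lower, with a median of -0.11. Over all genes tested 7.8% were called higher and 9.41% lower, and the counts of each list below stand beside these shares. Il1r2, the decoy receptor for IL-1, was found in 4 WT neutrophils with 5 UMIs (52.4 CPM) and in 99 N-LKO neutrophils with 126 UMIs (194 CPM), a log2 ratio of 1.76 (0.63 to 3.54). Its free RNA levels were 0.735 and 10.7 CPM. Slc7a11, the cystine transporter, stood at 126 CPM in WT and 332 in N-LKO (1.34, 0.56 to 2.37), Grina at 41.9 and 137 (1.55), Lmnb1 at 31.4 and 106 (1.55) and Lrg1 at 73.3 and 241 (1.62, free RNA 72.0 and 300.1). None of these 5 was called from 500 UMIs up, where the log2 ratio was 0.35 for Il1r2 (197 and 253 CPM), 0.60 for Slc7a11 (0.24 to 0.98), 0.37 for Grina, 0.30 for Lmnb1 and 1.00 for Lrg1. Adding the cells below 1000 UMIs thus raised the level of Il1r2 in both libraries, from 52.4 to 197 CPM in WT and from 194 to 253 CPM in N-LKO.

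Stfa2l1, a stefin A-like protease inhibitor, was the identity gene with the lowest ratio, at 147 CPM in WT and 37.0 in N-LKO (-2.01, -3.00 to -0.92), with 14 and 24 UMIs and free RNA of 0.12 and 2.62. It stayed lower from 500 UMIs up, at 160 and 71.1 CPM (-1.18, -1.74 to -0.59). Slpi, the secretory leukocyte protease inhibitor, stood at 314 and 154 CPM (-1.04, -1.63 to -0.39), and Mmp9, the gelatinase of tertiary granules, at 168 and 74.0 (-1.21, -2.02 to -0.26). From 500 UMIs up both were below the 2-fold limit, with ratios of -0.87 (-1.20 to -0.52) and -0.82 (-1.29 to -0.30). Wfdc21 was called lower (-1.30), but its level in free RNA, 2199 and 755 CPM, was above that in neutrophils, 1498 and 611.

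Among 14 secondary and tertiary granule genes 1 was called higher and 2 lower, with a median of -0.54. From 500 UMIs up the median was 0.02 over 15 genes, of which 4 were called higher and 0 lower. Ngp stood at 1152 CPM in WT and 703 in N-LKO (-0.72, -1.02 to -0.40) and Camp at 953 and 489 (-0.97, -1.30 to -0.61), beside the shares of granule-rich cells given above. From 500 UMIs up the ratio was -0.25 for Ngp and -0.54 for Camp. Hp, haptoglobin, which hepatocytes also secrete, was the higher gene, at 377 and 1053 CPM, with free RNA at 433 and 1492, and it turned to -2.46 when free RNA was subtracted. Lyz2, lysozyme, stood at 817 and 1189 CPM (0.53). Of 3 primary granule genes tested, Mpo was called lower (83.8 and 30.8 CPM, from the 3 cells named above), and the median was -0.58.

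The apparatus of oxidant production, migration and sensing held no called gene. The 5 NADPH oxidase genes had a median of 0.10, with Cyba at 335 and 302 CPM (-0.17) and Cybb, the catalytic gp91phox subunit, at 262 and 404 CPM (0.60, 0.03 to 1.28). The 7 chemoattractant receptors tested had a median of -0.27. Among them Ccr1 stood at 126 and 109 CPM, C5ar1 at 94.3 and 81.7, and Cxcr4, which retains neutrophils in the marrow and is regained by aged cells, at 94.3 and 61.7 (-0.67, -1.68 to 0.62). The 10 adhesion molecules had a median of -0.13, with Itgam (CD11b) at 199 and 140 CPM (-0.53) and Cd44 at 304 and 453 CPM (0.56, 0.02 to 1.18). The 10 sensing and Fc receptor genes had a median of -0.23, and the adaptor genes Tyrobp (1079 and 931 CPM) and Fcer1g (566 and 685 CPM) were their most abundant members. The rule for a call requires a 2-fold difference, so smaller ones could not be called, and the intervals of Cybb and Cd44 lay above 0. The genes named here had 9 to 103 UMIs in WT, which limits what smaller differences can be seen.

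The 8 cytokine and chemokine genes tested also held no called gene, with a median of 0.32 that turned to -0.28 from 500 UMIs up. Il1b was the most abundant, at 629 CPM in WT (60 UMIs) and 725 in N-LKO (470 UMIs), a ratio of 0.19 (-0.18 to 0.62). Cxcl2 stood at 503 and 361 CPM (-0.49, -0.93 to 0.00), Ccl6 at 168 and 275 CPM (0.67) and Wfdc17 at 178 and 254 CPM (0.48). From 500 UMIs up the ratio was -0.18 for Il1b (994 and 877 CPM) and -0.24 for Cxcl2 (499 and 424 CPM). The intervals of Il1b at both depths lay within 2-fold of no difference. None of 13 interferon-stimulated genes was called, with a median of -0.21. Ifitm3, the most abundant, stood at 932 and 685 CPM (-0.45, free RNA 835 and 395).

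Transcription factors and survival genes showed single higher calls, which is no excess over the 7.8% of all genes called higher. Of 22 factors tested Runx1, a hematopoietic transcription factor, was called higher, at 83.8 and 258 CPM (1.54, 0.61 to 2.85; free RNA 15.7 and 64.4), and from 500 UMIs up it stood at 89.4 and 244 CPM (1.42, 0.84 to 2.12). Without the neutrophils that held 4 UMIs of another type its ratio was 0.96 and it was not called. The immediate early gene Junb stood at 157 and 322 CPM (0.99, 0.28 to 1.90) and Fos at 136 and 248 CPM (0.82, 0.05 to 1.81). A list of 15 genes that respond to tissue dissociation had a median of 0.03 with no call. Of 11 survival genes Mcl1, the BCL2 family member that neutrophils depend on for survival, was called higher, at 136 and 332 CPM (1.23, 0.48 to 2.22), but from 500 UMIs up it stood at 369 and 333 CPM (-0.15, -0.48 to 0.19).

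Lipid handling genes held 3 higher and 1 lower call among 15, with a median of 0.12. From 500 UMIs up the list held 4 higher and 0 lower calls among 12, with a median of 0.19. Lpl, lipoprotein lipase, stood at 31.4 CPM in WT (3 UMIs) and 261 in N-LKO (2.83, 1.48 to 5.34), and Abca1, the cholesterol efflux transporter, at 73.3 and 318 CPM (2.02, 1.05 to 3.45). Both were called from 500 UMIs up, at 2.57 and 1.70, and both had higher free RNA levels in N-LKO too. Free RNA of Lpl stood at 50.9 CPM in WT and 190 in N-LKO and that of Abca1 at 101 and 204 CPM, so that in WT both genes stood higher in free RNA than in neutrophils. Alox5ap, the activator of 5-lipoxygenase in leukotriene synthesis, stood at 73.3 and 170 CPM (1.12, 0.12 to 2.56) and was not called from 500 UMIs up (0.22). Cd36, a fatty acid transporter, stood at 115 and 222 CPM (0.89, 0.06 to 1.98), with free RNA at 75.4 and 199 CPM. It was not called here but was from 500 UMIs up (1.37, 0.75 to 2.12). Olr1, the scavenger receptor LOX-1, was the lower gene, at 105 CPM (10 UMIs in 5 cells) and 18.5 CPM (12 UMIs in 10 cells), a ratio of -2.51 (-3.84 to -1.13). From 500 UMIs up it stood at 67.1 and 27.7 CPM (-1.29, -2.18 to -0.34), and among cells with at least 3 of the 5 selection genes at 0.47.

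A list of genes known from tumor-associated neutrophils was examined because tumor was present only in the N-LKO pool, and its 18 genes tested had a median of 0.47 with 1 higher and 2 lower calls. Over the same genes the median was 0.65 in the other kept cells and -0.10 in monocyte-gated cells. Ctsd, a lysosomal protease, was called higher, at 115 and 362 CPM (1.59, 0.79 to 2.67), with free RNA at 104 and 294 CPM. Ctsb stood at 356 and 652 CPM (0.85). Arg1, arginase 1, was called lower, at 723 and 324 CPM (-1.17), with free RNA at 826 and 293 CPM, so its level was that of free RNA, to which hepatocytes contribute. Ldha, lactate dehydrogenase A, was called lower, at 419 and 204 CPM (-1.05, -1.56 to -0.49; free RNA 354 and 165). Of 11 hypoxia and glycolysis genes, Ldha and the mitophagy receptor Bnip3 (178 and 60.1 CPM, -1.59) were called lower, and the median was -0.31. Gapdh stood at 545 and 478 CPM (-0.20).

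Respiratory chain subunits encoded in the nucleus were the list with the lowest median, -0.96, and 37 of 37 genes tested lay below 0, of which 15 were called lower. Uqcrq and Uqcrb of complex III stood at 1320 and 433 CPM (-1.61) and at 440 and 199 CPM (-1.16). Cox6c and Cox7b of complex IV stood at 1048 and 386 CPM (-1.45) and at 828 and 258 CPM (-1.69), and Atp5e of the ATP synthase at 943 and 324 CPM (-1.55). The same list had medians of -0.82 in the other kept cells and -0.92 in monocyte-gated cells. Free RNA levels of these 5 genes were above those in neutrophils in both libraries, except for Atp5e in N-LKO (309 CPM), with 1887 CPM for Uqcrq and 1718 CPM for Cox6c in WT and 512 and 432 CPM in N-LKO. After subtraction of free RNA the median turned to 0.88 over 36 genes, with 164 UMIs left in WT. The lower level was therefore shared with the other cells and with free RNA, and its sign in the neutrophils depended on that subtraction.

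**Figure D5:**
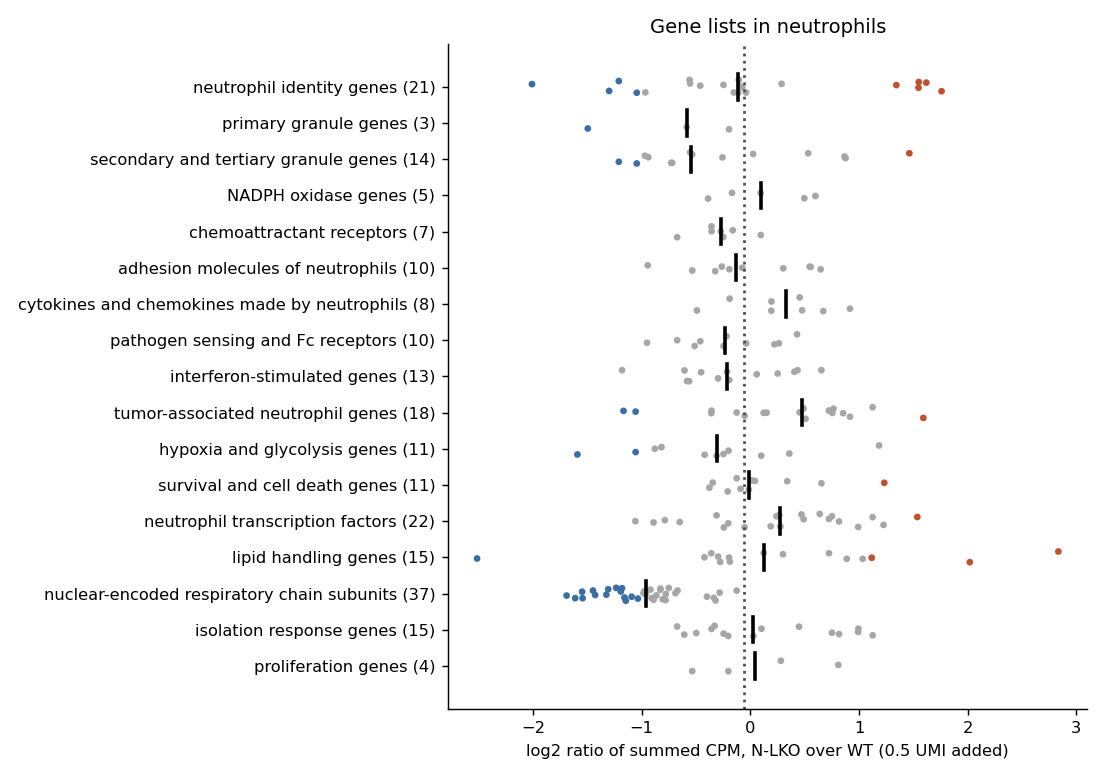
Log2 ratio of N-LKO over WT summed CPM in neutrophils (x axis) for each gene tested in 17 lists, with the number tested in brackets. Red points were called higher, blue points lower and grey points not called, black bars are list medians and the dotted line is the median of all 3486 genes (-0.05). Respiratory chain subunits lay to the left of 0, and most other lists straddled it.

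The genes with the strongest calls, named by the bound of their interval nearest to 0 and standing above free RNA, held many that other cells express. The 10 higher were Igha, Hbb-bs, Igkc, Rad51b, Jchain, Hba-a1, Mpp7, Cdk12, Hba-a2 and Grip1. Immunoglobulin Igkc had 3 UMIs in WT and 943 in N-LKO neutrophils, of which 363 were in 1 cell. Igha had 0 and 341 UMIs, of which 154 were in 1 cell, at least 16.7-fold higher against a floor of 3 UMIs over the WT cells, with an exact log2 interval from 3.76 upward. The globin Hbb-bs had 0 and 333 UMIs in 12 cells, with 117 in 1 of them. Without the neutrophils that held 4 UMIs of another type, Hbb-bs had 3 UMIs and Hba-a1 1. These globins are themselves on the erythroid list by which such neutrophils were left out, so that drop was fixed in advance. Rad51b, a homologous recombination factor, was spread over 89 N-LKO neutrophils with 165 UMIs and none in WT, at least 8.1-fold higher against the same floor (interval from 2.70 upward), and kept 100 UMIs without those cells. From 500 UMIs up Rad51b had 4 UMIs in WT and a ratio of 3.67 (2.46 to 5.72). Mpp7, Cdk12 and Grip1 likewise had 0 WT UMIs and were found in 65, 65 and 45 N-LKO neutrophils. Ratios above 0 for these genes were not limited to neutrophils, with Rad51b at 2.79 in the other kept cells and 1.28 in monocyte-gated cells, Mpp7 at 1.88 and 1.49, Grip1 at 2.63 and 3.91, and Cdk12 at 0.56 and 0.08. The free RNA level of Rad51b was 17.8 CPM in WT and 118 in N-LKO.

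The 10 lower genes were Ccl5, Olr1, Stfa2l1, Mrpl13, Xpc, Gfm1, Proz, Ehd3, Rheb and Ppp1r11. Ccl5, a chemokine of T and NK cells, stood at 1037 CPM in WT (99 UMIs in 14 cells, at most 26 in 1 cell) and at 321 CPM in N-LKO (-1.70, -2.05 to -1.33). Without the neutrophils that held 4 UMIs of another type it had 5 UMIs in WT and was not called (-0.69). Rheb, the GTPase that activates mTORC1, stood at 168 and 57.1 CPM (-1.58) with 16 UMIs in WT. The other 6 genes had 9 to 13 UMIs in WT. From 500 UMIs up only Stfa2l1, Mrpl13 and Rheb of the 10 were called. Ccl5 (-0.57) and Proz (-0.90, -1.73 to 0.02) no longer met the rule, and the other 5 fell under the 50 CPM limit, with ratios of -1.29 for Olr1, -1.42 for Xpc, -1.31 for Gfm1 and -1.16 for Ehd3 and Ppp1r11. Without the neutrophils that held 4 UMIs of another type, Ehd3 had 2 UMIs in WT and a ratio of -0.42.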

How the data were processed

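Cell suspensions of WT liver and of N-LKO liver plus tumor were run on the 10x Genomics 3′ platform, 1 library each. The authors aligned and counted the reads with Cell Ranger (version 7.1.0 in the file headers), and their processing notes name the build mm9 and Seurat. The deposited counts are raw UMIs per gene and barcode for 32285 genes, and the 2 matrices hold 100171 (WT) and 90147 (N-LKO) barcodes, so cells were selected here. The members and gene lists were chosen with earlier results of these data known.

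Counts were summed over the neutrophils of each library and scaled to CPM. Ratios had 0.5 UMI added to each sum and exact conditional binomial intervals, levels had exact Poisson intervals, shares exact Clopper-Pearson intervals and their differences Newcombe intervals, all at 95%. UMIs count molecules, so these intervals cover counting error only. Where WT was at 0, a fold was computed against a floor of 3 UMIs over the group. The pipeline was tested on simulated sums that held Poisson counting error only, the error the intervals cover. UMIs gathered in single cells were not simulated, so the test does not bear on that spread. A list was tested over its genes that passed the filter, and 2 list genes are not in the feature table. Genes named in the text were drawn from the selection genes and from the 4 most abundant and any called gene of each list. Not every gene of these kinds is named, so naming involved choice. Also named were the 10 higher and 10 lower genes with interval bounds farthest from 0 at 2 times the free RNA level or more. Other genes are said to be chosen after seeing values or come from the marker lists. Monocyte-gated cells had at least 4 UMIs of Csf1r, Ccr2, Ly6c2 and F13a1, and endothelial-gated cells at least 4 of Stab2 and Ptprb. Doublets were kept and left out as an alternative at a Scrublet score of 0.25 (scanpy 1.11.5). Python 3.11.15, numpy 2.4.6, scipy 1.17.1 and pandas 2.3.3 were used. Promoter sequences came from RefSeq (GRCm38.p6), and all 3 genes matched by symbol.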

Additional observations from a re-analysis of the deposited data

How the results depend on the processing

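The N-LKO neutrophil share stayed above the WT share in all 11 ways of choosing cells. In percentage points the difference among all kept cells was 1.774 with a minimum of 500 UMIs and 200 genes, 1.22 with 2000 UMIs, 0.926 with a mitochondrial limit of 10%, 0.868 with 8 selection UMIs, 0.965 with 3 of the 5 selection genes, 0.792 without exclusion UMIs, 1.17 without neutrophils holding 2 monocyte UMIs and 0.632 without those holding 4 UMIs of another type. Among Ptprc-positive cells it was 1.145, 1.32, 0.889, 1.25, 0.832, 1.22 and 0.531 under the same settings from 2000 UMIs on. The last of these settings and the one without granule-rich cells were added after seeing the data.

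Higher and lower calls numbered 89 and 113 with 2000 UMIs (7 WT cells), 87 and 81 with a mitochondrial limit of 10% (19 WT cells) and 40 and 103 at a mean of 200 CPM, where fewer genes were tested, and the higher calls numbered 158 with 3 selection genes. Without neutrophils holding another type's UMIs 166 of the 272 higher and 182 of the 328 lower calls remained.

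The respiratory chain median was -1.225 with 500 UMIs, -0.60 with 2000 UMIs, -0.59 with the 10% limit, -1.22 without another type's UMIs and 0.88 with free RNA subtracted. With the 10% limit the medians were 3.63 for primary granule, 1.47 for NADPH oxidase, 1.05 for adhesion, -0.62 for interferon-stimulated and 0.93 for proliferation genes. The primary granule median, over 3 genes, was 3.42 with 3 selection genes and 3.15 without exclusion UMIs. Sensing genes had -1.22 with 2000 UMIs, and at a mean of 200 CPM transcription factors had 0.86 and lipid genes -0.39.

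Called genes named in the text changed sign as follows, and the cause was not tested. With 500 UMIs this was Mcl1 (-0.15). With 2000 UMIs these were Slc7a11 (-0.37), Gfm1 (0.041), Jchain (-1.34), Hbb-bs (-2.07), Arg1 (0.070), Hba-a1 and Hba-a2 (-3.66), Igha and Lmnb1 (-0.20), Uqcrb (1.33), Uqcrfs1 (1.385), Cox7a2 (0.108), Ndufa6 (0.133) and Runx1 (-0.057). With the 10% limit these were Mmp9 (1.53), Slc7a11 (-0.14), Mcl1 (-0.052), Mpo (3.57), Uqcrb (0.071), Uqcrfs1 (2.61) and Grina (-0.50). Mpo gave 2.36 with 3 selection genes, 2.93 without exclusion UMIs and 2.35 without granule-rich cells, and Olr1 gave 0.47 with 3 selection genes. Hba-a1 and Hba-a2, which are on the erythroid list behind that setting, gave -0.60 without another type's UMIs. With free RNA subtracted these were Hp (-2.46), Uqcrb (3.29), Cox6c (4.001), Cox7a2 (2.76), Ndufa6 (0.523), Atp5o (0.045) and Lrg1 (-0.20). No paired analysis was possible because each group has 1 library.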
